A study of Mus musculus with 60 samples.

Results

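The nucleolar ribosome biogenesis genes described here were 41 of the 27238 genes in the expression table. They were taken by name: every protein-coding gene whose symbol starts with Polr1 or Utp, or with Nop, Nol or Noc followed by a digit, together with Fbl, Ncl, Npm1, Dkc1 and Ubtf. By function they fell into 6 genes of RNA polymerase I transcription (Polr1a to Polr1e and Ubtf), 5 core proteins of small nucleolar ribonucleoproteins (snoRNPs), 16 factors of the small ribosomal subunit, 8 factors of the large subunit, the 2 abundant nucleolar proteins Ncl and Npm1, and 4 genes (Nol3, Nol4, Nol4l and Nol7) that carry the prefix without a settled place in ribosome assembly. Twistnb, Cd3eap and Znrd1, other RNA polymerase I subunits, did not match by the annotation's symbols and were not among the 41.

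The study followed single mouse embryos from the zygote (1-cell) by way of 2, 4 and 8 cells to the morula and the blastula, 6 stages in all, in 3 types, with 3 embryos per group, and added the 2 kinds of donor cell with 3 libraries each, 60 libraries in all. In vivo embryos, on the BDF1 background, came from C57BL/6 females mated with DBA2 males and developed in the mother. NTC embryos were made by somatic cell nuclear transfer of a cumulus cell (CC, from the follicle of BDF1 females), and NTM embryos by transfer of a mouse embryonic fibroblast (MEF, from BDF1 fetuses), into an enucleated oocyte of a BDF1 female. Both kinds of nuclear transfer (NT) embryo were activated with strontium chloride and cytochalasin B, treated with the histone deacetylase inhibitor Scriptaid and cultured in vitro, none of which the in vivo embryos went through. The oocytes also differed in strain, C57BL/6 in vivo and BDF1 in NT, and those for NT came from superovulated females, which is not stated for in vivo embryos. Differences between NT and in vivo embryos therefore cannot be told apart from differences between culture with drugs and development in the mother, or between sources of the oocyte. Single embryos were chosen by morphology, and the labels do not say whether replicates came from separate females or culture days, so p-values measure the spread between these embryos.

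The nucleolus is where RNA polymerase I transcribes the ribosomal RNA (rRNA) genes and where the long precursor is modified, cut and packed with ribosomal proteins. Guide snoRNAs, carried by box C/D and box H/ACA snoRNPs, direct methylation and pseudouridylation of the precursor, while the small subunit processome, built largely of Utp and Nop proteins, folds and cleaves the part that becomes the small subunit. Mouse oocytes and zygotes hold compact nucleolus precursor bodies with little or no rRNA synthesis, and working nucleoli form during the cleavage divisions. A nuclear transfer embryo replaces the nucleolus of a somatic cell with such bodies supplied by the oocyte.

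Promoter sequence was looked at because many of the members rose at one stage. RefSeq (GRCm38.p6) gave 40 promoters for 32 of the 41 genes. The 9 genes with no entry were Fbl, Nol3, Nol4, Nol6, Nop53, Npm1, Utp11, Utp23 and Utp6. In the 250 bases before the start site, on either strand, the SP/KLF element GGGCGG was present in 32 of 40 member promoters (80%) and in 49.5% of 17347 promoters of all genes. The NFY element CCAAT was present in 17.5% of member promoters and 35.0% of all promoters, and the TATAAA box in 7.5% and 8.58%. The ETS element CCGGAAGT was found in 10% of member promoters (Nol10, Polr1c, Utp3 and Utp4) and 4.54% of all, and the E-box CACGTG, the letters bound by the Myc family, in 10% (Nol11, Nop2, Utp14b and Utp18) and 7.40% of all. The ZBTB33 palindrome was found in Nol9 alone (2.5% against 0.663%), and the full NRF1 and YY1 sites were found in 0 member promoters, against 1.27% and 0.473% of all. Matches of different elements overlapped in 0 of the 40 promoters, and the median GC content of the window was 61.8% in members and 58% in all promoters. The last 120 bases before the start site are printed for the pair of polymerase subunits that moved most at the 4-cell stage, Polr1c and Polr1d, and for 2 of the members with an E-box, Nop2 and Nol11. Capitals mark the ETS element in Polr1c and the E-box in Nop2 and Nol11. Polr1c lies on the minus strand (chr17:46248046-46248165), Polr1d on the plus strand (chr5:147077226-147077345), Nop2 on the plus strand (chr6:125131763-125131882) and Nol11 on the minus strand (chr11:107189382-107189501), and each is written 5′ to 3′ along its gene.
Polr1c: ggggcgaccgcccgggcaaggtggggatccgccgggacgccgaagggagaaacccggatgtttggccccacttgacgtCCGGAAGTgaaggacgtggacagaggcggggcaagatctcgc
Polr1d: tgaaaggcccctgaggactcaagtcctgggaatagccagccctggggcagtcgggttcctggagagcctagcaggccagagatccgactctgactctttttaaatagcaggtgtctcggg
Nop2: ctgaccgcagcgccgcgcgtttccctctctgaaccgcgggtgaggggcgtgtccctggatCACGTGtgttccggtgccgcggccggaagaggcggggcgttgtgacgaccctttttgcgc
Nol11: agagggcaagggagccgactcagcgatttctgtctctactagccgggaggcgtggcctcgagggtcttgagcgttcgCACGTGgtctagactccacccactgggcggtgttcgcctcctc
The printed stretch of Polr1d holds neither of the marked elements. That stretch lies inside the span of the gene in the GENCODE vM21 annotation, which starts at 147077050. The sequence before that start was not searched. Another sequence feature of the list lies inside the genes: 5 of 41 members (12.2%) hold annotated snoRNA genes within their span, with 5 such genes in Nop56, 4 in Nop58, 3 in Ncl and 1 each in Dkc1 and Nop53, against 1.36% of 18043 protein-coding genes in the table.

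Values are RPKM as the authors deposited them, that is, reads per kilobase of exon scaled to the library's reads on genes. The table keeps read depth, since values are whole multiples of 1 read, and gave 5294167 to 47830132 reads on genes per library (median 15451428). At a length of 2000 nucleotides, 3 reads correspond to 0.0314 to 0.283 RPKM, so levels under that are not told from 0. All values are shares of a library's reads, so less RNA from a gene, fewer cells and less RNA per cell cannot be told apart. Oocyte and MEF markers followed the labels, while cumulus markers set both kinds of donor cell apart from the embryos. Summed RPKM of 7 oocyte genes was 1637 to 4560 in 1-cell and 2-cell embryos and 48.7 to 438 in 4-cell embryos, markers of MEF reached at most 20.9 RPKM in any embryo against 5710 to 8771 in MEF, and cumulus markers at most 56.4 against 467 to 1129 in CC. Cumulus markers were not particular to CC, since they summed to 517 to 1230 RPKM in MEF. A list of 5 genes of the 2-cell embryo, the Zscan4 genes among them, did not follow the labels in NT embryos. It summed to 24.6 to 1128 RPKM in in vivo 2-cell and 49.7 to 111 RPKM in in vivo 4-cell embryos, but to 2.62 to 22.1 RPKM in NTC 2-cell and 0 to 0.795 RPKM in NTM 2-cell embryos, where NTM 1-cell embryos held 5.10 to 24.6 RPKM. A list of 6 trophectoderm genes summed to 159 to 1090 RPKM in blastulae of the 3 types and to 130 to 196 RPKM in CC. The part of these markers in the results was not tested.

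The 3 in vivo 4-cell libraries, on which much of what follows rests, stood apart from the other embryo libraries. Mitochondrial transcripts took 5.68 to 8.87% of their reads and 20.4 to 64.2% in the other embryos from the 4-cell stage on, while the 1-cell and 2-cell embryos held 2.92 to 22.9%. All 3 lay above every one of the other 51 embryo libraries for 1150 of 12595 genes tested (9.13%), while in the next group, NTC 1-cell, the same was true of 1.21%. Among 40 members tested it was true of 11: Polr1b, Polr1c, Polr1d, Ncl, Noc4l, Nol11, Nol12, Nop9, Nop10, Nop14 and Nop16. With mitochondrial reads left out of the total it was true of 8 members (7.11% of genes), the same list without Nol11, Nop9 and Nop14. The source of this was not tested, and the rise of the members is also given without these libraries.

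The summed share of reads on the 41 genes was higher in every 4-cell than in every 2-cell embryo of the same type, and of all group means that of in vivo 4-cell embryos was the highest when mitochondrial reads were part of the total. In vivo 1-cell embryos gave 0.337 ± 0.0457% (SD, n = 3), 2-cell embryos 0.302 ± 0.0588%, 4-cell embryos 1.62 ± 0.0269%, 8-cell embryos 1.35 ± 0.291%, morulae 1.19 ± 0.644% and blastulae 0.816 ± 0.0848%. The share went from 0.234% to 0.724 ± 0.155% between 2-cell and 4-cell NTC embryos, and from 0.171% to 0.827 ± 0.0504% in NTM embryos. The 3 in vivo 4-cell embryos lay above all NT 4-cell embryos, and the in vivo morulae overlapped both NT groups because 1 of them held 0.470%. With mitochondrial reads left out of the total, the 4-cell share was 1.75 ± 0.0266% in vivo (SD, n = 3), 1.08% in NTC and 1.29% in NTM. On that total the in vivo summed share was higher still in 8-cell embryos (2.15 ± 0.295%) and morulae (1.91 ± 0.585%). The stage with the highest summed share thus differed with the total used. The donor cells held 0.254% (CC) and 0.330% (MEF). Npm1, a histone chaperone and ribosome assembly factor, had the highest level per length of the list in in vivo 4-cell embryos. It also made up much of the summed share: in in vivo 8-cell replicate 2 it took 244991 of the 326988 reads on the 41 genes. The order of the stages by summed share therefore cannot be read as that of the other members, whose share without Npm1 was not computed.

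**Figure D1:**
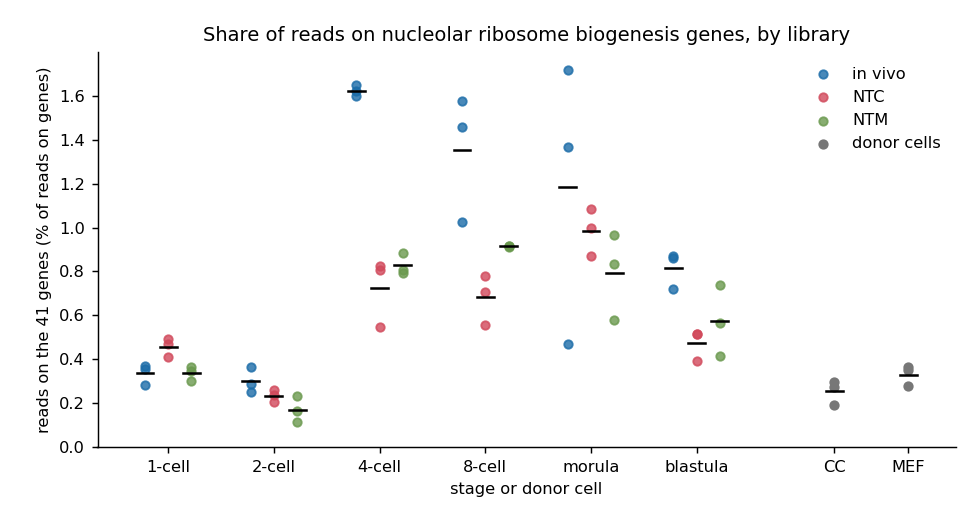
Share of each library's reads on genes that fell on the 41 nucleolar genes (percent, linear axis from 0) by stage, one point per library, coloured by embryo type, with a short black bar at the mean of each group and the donor cells set apart at the right. In vivo 4-cell embryos sit at 1.62% on average and the NT 4-cell embryos at 0.724% (NTC) and 0.827% (NTM).

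In vivo and in NTM most members had their highest mean level at the 4-cell stage on the deposited scale. That was so for 29 of 41 in vivo, while 6 peaked in 8-cell embryos, 4 in 2-cell embryos, 1 in 1-cell embryos and 1 in morulae. In NTM embryos 22 of 41 peaked with 4 cells and 9 with 8 cells. In NTC embryos the peaks were more spread out, with 15 in 4-cell embryos, 12 in morulae and 6 in 1-cell embryos. With mitochondrial reads left out of the total, a setting added after the data were seen, 22 of 41 peaked with 4 cells and 12 with 8 cells in vivo, 20 and 11 in NTM, and 13 with 4 cells and 14 as morulae in NTC.

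**Figure D2:**
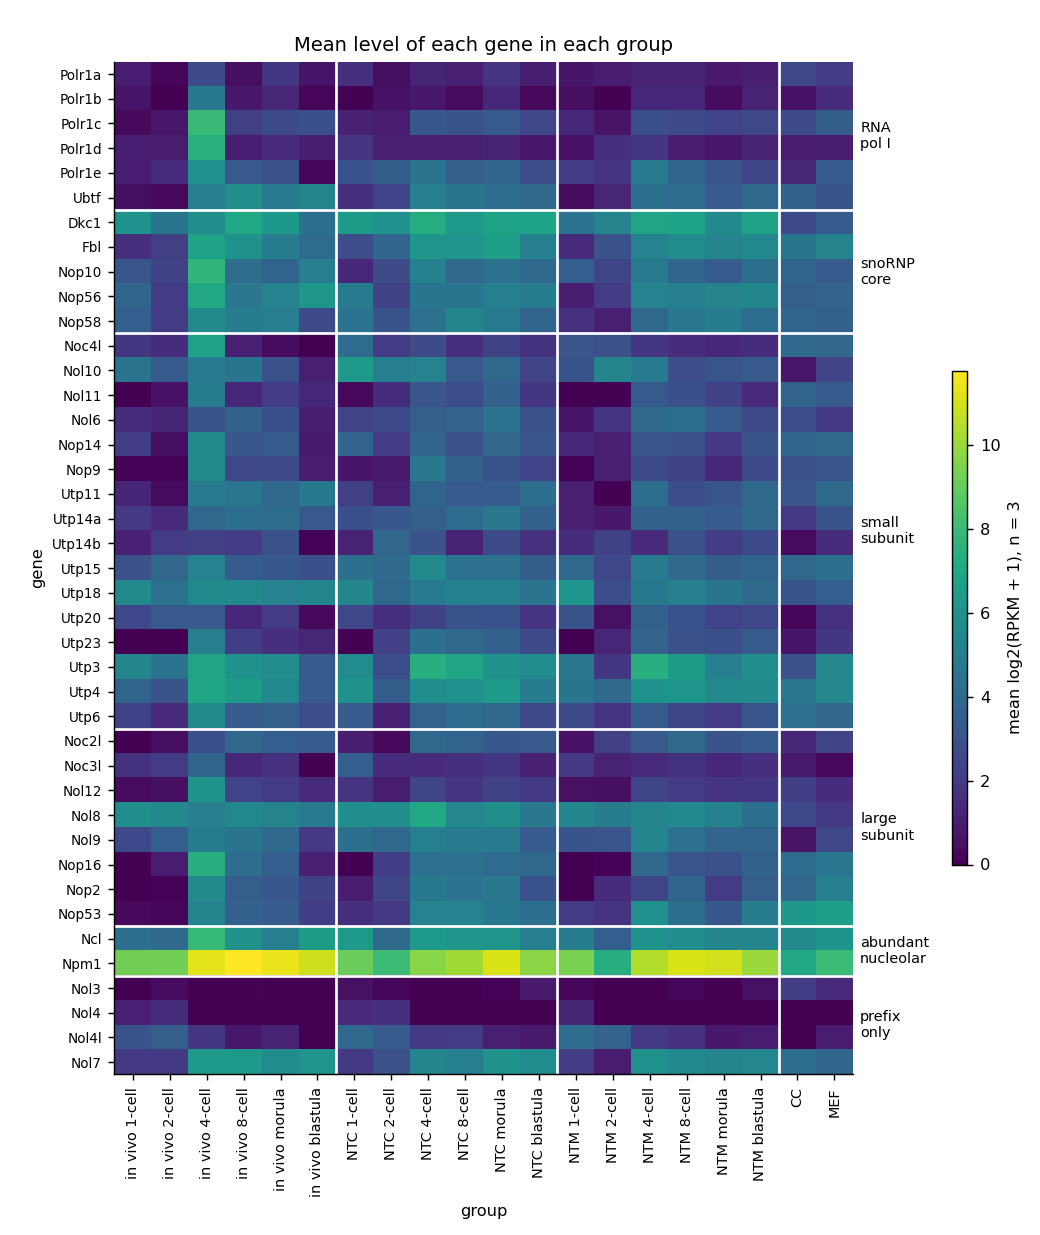
Mean log2(RPKM + 1) of each of the 41 genes (rows, ordered by role) in the 20 groups (columns, by embryo type and stage, then CC and MEF), with colour for the level. The 4-cell column holds the highest in vivo mean of 29 genes, and Nol3 and Nol4 are near 0 in most groups.

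For tests, limma was fitted on log2(RPKM + 1) over all genes with a mean of at least 0.5 RPKM, and a gene was called when its Benjamini-Hochberg adjusted p was under 0.05 and its log2 difference at least 1 in size. Percentages of genes given beside counts of members at an unadjusted p under 0.05 are those of calls, not of genes at that unadjusted threshold. Between 2-cell and 4-cell in vivo embryos, 32 of 40 members tested rose and 1 fell, where 31.4% of all genes tested rose and 20.8% fell. The median member changed by 4.06 on the log2 scale and the median gene by 0.36. All 6 RNA polymerase I genes, 4 of 5 snoRNP proteins, 12 of 16 small subunit factors, 7 of 8 large subunit factors, Ncl and Npm1 rose. Of the 33 calls, 28 held without any 1 library and under every other setting tried, and the other 5 (Noc3l, Nol6, Nol9, Utp4 and Utp15) were lost without at least 1 library. Nol9, for example, lost its call without any 1 in vivo 4-cell library (adjusted p = 0.0526 to 0.0656).

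The 2 largest rises on the log2 scale were those of RNA polymerase I genes. Polr1c and Polr1d encode the pair of small subunits shared by RNA polymerases I and III. Polr1c was at 0.33, 0 and 2.87 RPKM in the in vivo 2-cell embryos and 284, 220.2 and 251 RPKM in the 4-cell embryos. Its log2 change was 7.19 ± 0.55 (SE, limma adjusted p = 7.01e-05). Polr1d went from 2.45, 0.331 and 0.457 to 179.8, 153 and 198 RPKM, a log2 change of 6.55 ± 0.46 (SE, limma adjusted p = 5.37e-05). For both genes the 2 stages were far apart, and no other embryo library came near: the lowest in vivo 4-cell value was 23.6 times the highest value in any other embryo library for Polr1d and 12.8 times for Polr1c. The catalytic core rose from low levels. Polr1b, the smaller of the pair of large subunits, was at 0, 0 and 0.0208 RPKM in 2-cell and 21.9, 27.2 and 30.1 RPKM in 4-cell embryos, and Polr1a, the largest subunit, at 0.376, 0 and 0.122 and 3.97, 5.37 and 7.72 RPKM. Their log2 changes were 4.75 ± 0.33 (SE) and 2.49 ± 0.38 (SE). At the in vivo 4-cell stage the levels of the subunits of the polymerase thus differed greatly from one another per length, from 5.68 ± 1.89 RPKM (SD, n = 3) for Polr1a to 252 ± 32.0 RPKM (SD, n = 3) for Polr1c. Polr1e, a subunit that helps initiation, rose by 4.40 ± 0.42 (SE) on the log2 scale. Ubtf, the HMG-box protein that coats active rRNA genes, was at 0.672, 0.011 and 0 RPKM in 2-cell and 26.6, 38.8 and 36.2 RPKM in 4-cell embryos. Its log2 change was 4.85 ± 0.39 (SE, limma adjusted p = 8.05e-05), and in the 8-cell embryos it stood at 94.5, 58.7 and 32.0 RPKM, where 1 of the 3 values lay among those of the 4-cell stage.

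**Figure D3:**
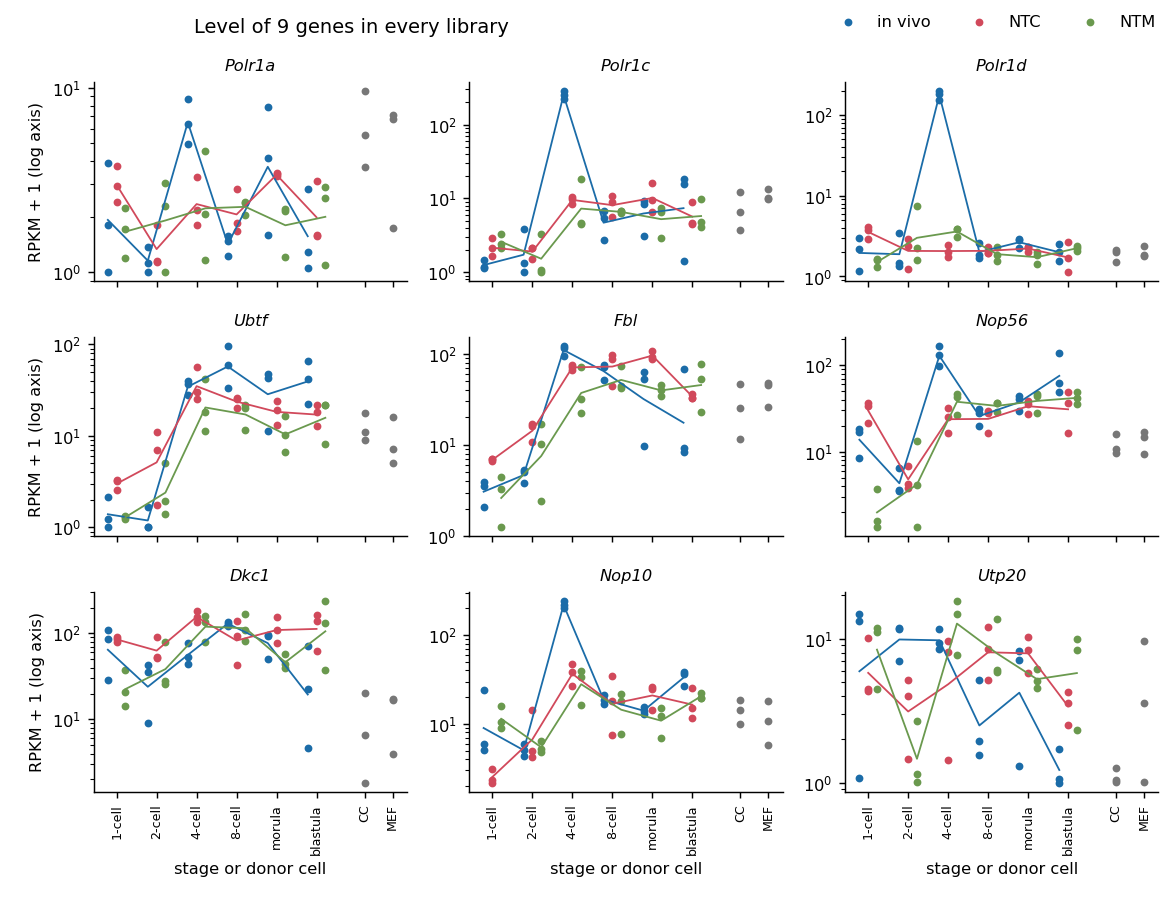
RPKM + 1 (log axis) of 9 members by stage, one panel per gene, with a point for each in vivo, NTC and NTM library, lines through the group means taken on the log2 scale, and the donor libraries in grey at the right. Polr1c and Polr1d reach 220.2 to 284 and 153 to 198 RPKM in in vivo 4-cell embryos alone, whereas Ubtf rises in all 3 embryo types.

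All 3 box C/D proteins rose, and of the 2 H/ACA proteins 1 did. Fibrillarin (Fbl), the methyltransferase of box C/D snoRNPs, was at 4.26, 2.86 and 4.02 RPKM in in vivo 2-cell and 120.1, 93.7 and 115 RPKM in 4-cell embryos. Nop56 and Nop58, the paired scaffold proteins of the same particles, changed by 4.89 ± 0.41 (SE, limma adjusted p = 0.000102) and 3.51 ± 0.51 (SE, limma adjusted p = 0.00108), and Fbl by 4.56 ± 0.34 (SE, limma adjusted p = 6.29e-05). Of the H/ACA proteins, Nop10, a short protein that binds the pseudouridine synthase, went from 4.02, 3.31 and 4.97 to 216, 239 and 202 RPKM, a log2 change of 5.44 ± 0.32 (SE, limma adjusted p = 3.45e-05). The synthase itself, Dkc1, did not pass the test. Its values were 34.7, 41.4 and 8.09 RPKM in 2-cell and 51.8, 43.0 and 75.4 RPKM in 4-cell embryos, a difference of 1.23 ± 0.63 (SE, limma adjusted p = 0.136), and it had already stood at 27.4, 85.2 and 109 RPKM in 1-cell embryos.

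Among the small subunit factors, most of the rises started from low levels. Nop9 changed by 5.46 ± 0.40 (SE) and Noc4l, the partner of Nop14 in the processome, by 5.21 ± 0.60 (SE) on the log2 scale. Noc4l was at 6.39, 1.16 and 0.559 RPKM in 2-cell and 94.8, 108 and 119 RPKM in 4-cell embryos. Utp23 was listed at 0 in all in vivo 1-cell embryos and stood at 41.3, 21.4 and 35.7 RPKM at the 4-cell stage. The 4 small subunit factors that did not pass the test were Nol10, Utp14b, Utp18 and Utp20. Utp20, a very large scaffold protein, was at 10.6, 5.99 and 10.8 RPKM in 2-cell and 10.6, 8.38 and 7.42 RPKM in 4-cell embryos, a log2 difference of -0.02 ± 0.38 (SE, limma adjusted p = 0.968). Utp18 was at 40.6, 43.1 and 52.5 RPKM in 1-cell embryos.

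Of the large subunit factors, Nop16 and Nol12 rose most. Nop16 was listed at 0 in all 1-cell embryos of the 3 types, was at 0, 0 and 5.44 RPKM in in vivo 2-cell and at 188, 152 and 154 RPKM in 4-cell embryos, and its log2 change was 6.47 ± 0.74 (SE, limma adjusted p = 0.00035). Nol12, an RNA-binding protein, changed by 5.63 ± 0.33 (SE) on the log2 scale. Nop2, an rRNA cytosine methyltransferase, went from 0.252, 0 and 0.0218 to 23.1, 77.2 and 52.6 RPKM, a log2 change of 5.42 ± 0.50 (SE, limma adjusted p = 0.000141) with a wide spread between the 4-cell embryos. Noc2l, which also binds histones, went from 0.656, 0 and 0.443 to 8.59, 5.64 and 5.13 RPKM and changed by 2.45 ± 0.39 (SE). Nol8 did not pass the test, and its values overlapped between the stages. The abundant proteins rose by less on the log2 scale from much higher levels. Nucleolin (Ncl), which binds the nascent precursor, went from 18.5, 17.4 and 11.5 to 239, 249 and 215 RPKM and changed by 3.83 ± 0.33 (SE, limma adjusted p = 0.00011). Nucleophosmin (Npm1) went from 528, 1008 and 446 to 2572, 2496 and 2445 RPKM and changed by 2.01 ± 0.33 (SE, limma adjusted p = 0.00184). The 1 gene that fell was Nol4l, from 15.8, 7.41 and 10.9 to 2.33, 3.1 and 2.54 RPKM, a log2 change of -1.71 ± 0.39 (SE, limma adjusted p = 0.0085). Nol4l is a prefix-only gene, as is Nol4, which was listed at 0 in all in vivo embryos from the 4-cell stage on.

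In NT embryos fewer members passed the test over the same step, and those that did rose. In NTC embryos 23 of 40 rose and 0 fell, where 16.4% of all genes rose and 20.1% fell, with a member median of 1.54 against -0.20 over all genes. In NTM embryos 15 of 39 rose and 0 fell, where 12.1% of genes rose and 14.3% fell, with medians of 2.26 and -0.20. The snoRNP proteins rose in NTC embryos as a whole (5 of 5) and in NTM embryos 3 of 5 did, but only 2 of 6 RNA polymerase I genes rose in NTC (Polr1c and Ubtf) and 1 of 6 in NTM (Ubtf). In NTC the call of Dkc1 was lost without NTC 2-cell replicate 1 or 2 or NTC 4-cell replicate 1 or 3 (adjusted p = 0.0507 to 0.0587), and that of Nop58 without NTC 2-cell replicate 2 or 3 or NTC 4-cell replicate 1 or 3 (adjusted p = 0.0633 to 0.0937). The NTM calls were those of Nop10, Nop56 and Nop58, each lost without any 1 of 5 of the 6 libraries. The NTM count depended on single embryos: it was 7 without NTM 2-cell replicate 2, 8 without NTM 2-cell replicate 3 and 9 without any 1 of the NTM 4-cell libraries. NTM 2-cell replicate 3 is also the library in which many of these genes are listed at 0, among them Nol7, Utp11, Utp23 and Nop9.

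Utp3, a small subunit processome factor, led both NT lists. It was at 4.42, 4.62 and 10.3 RPKM in NTC 2-cell and 207, 156 and 144 RPKM in NTC 4-cell embryos, a log2 change of 4.58 ± 0.43 (SE, limma adjusted p = 0.000208). In NTM embryos it went from 0.0627, 24.9 and 0.892 to 163, 103 and 276 RPKM, a log2 change of 5.49 ± 1.13 (SE, limma adjusted p = 0.00848) whose call was lost without NTM 2-cell replicate 3 (adjusted p = 0.0564). Next in NTC embryos came Nop9 at 3.91 ± 0.46 (SE), Noc2l at 3.68 ± 0.48 (SE) and Nop53, which recruits the RNA exosome, at 3.22 ± 0.58 (SE) on the log2 scale. In NTM embryos Nol7 at 4.95 ± 0.83 (SE), Utp11 at 4.20 ± 0.68 (SE) and Nop53 at 4.10 ± 0.94 (SE) followed. The call of Nop53 in NTM was lost without NTM 2-cell replicate 2 or NTM 4-cell replicate 2 (adjusted p = 0.0538 to 0.0674).

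Ubtf rose in all 3 embryo types, and Fbl in vivo and in NTC. Fbl went from 15.05, 9.89 and 15.8 to 73.8, 65.4 and 70.5 RPKM in NTC embryos (2.31 ± 0.37, SE), where its 2-cell level was above that of all in vivo 2-cell embryos. In NTM embryos the difference of 2.30 ± 0.85 (SE, limma adjusted p = 0.081) did not pass. Ubtf went from 10.0, 0.766 and 5.97 to 55.2, 29.3 and 24.0 RPKM in NTC embryos, a log2 change of 2.77 ± 0.71 (SE, limma adjusted p = 0.0158) whose call was lost without NTC 4-cell replicate 1 (adjusted p = 0.0583). The NTM change of Ubtf was 3.09 ± 0.78 (SE, limma adjusted p = 0.0193), and its call was lost without NTM 2-cell replicate 2 or 3 or NTM 4-cell replicate 1 or 3 (adjusted p = 0.0519 to 0.0811). Polr1d was not called in either NT type. It was at 1.42, 1.95 and 0.248 RPKM in NTC 2-cell and 1.03, 0.749 and 1.47 RPKM in NTC 4-cell embryos, a log2 difference of -0.01 ± 0.53 (SE, limma adjusted p = 0.993), and at 0.62, 6.5 and 1.25 and 2.83, 2.93 and 2.12 RPKM in NTM embryos. Polr1c reached 8.83, 9.45 and 7.45 RPKM in NTC 4-cell embryos, a log2 change of 2.32 ± 0.45 (SE, limma adjusted p = 0.0047), and 3.66, 3.55 and 17.2 RPKM in NTM 4-cell embryos, a log2 difference of 2.26 ± 0.82 (SE, limma adjusted p = 0.0761) that did not pass.

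**Figure D4:**
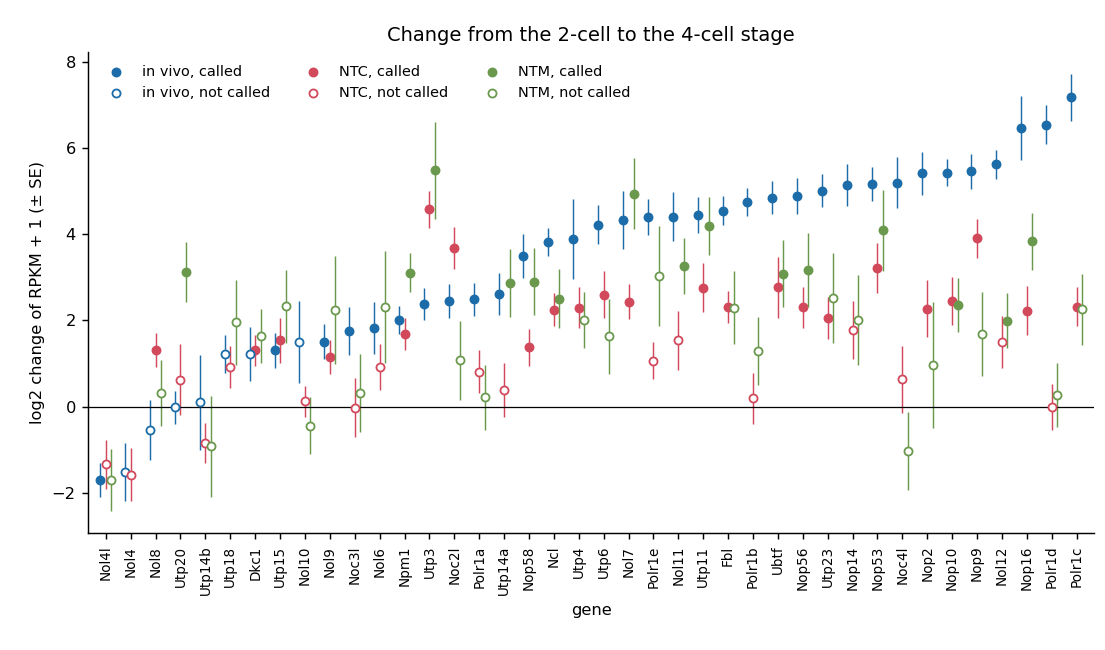
Log2 change between 2-cell and 4-cell embryos of each member tested (vertical axis) in in vivo, NTC and NTM embryos, with genes along the horizontal axis in the order of their in vivo change, bars for the SE and filled points for calls. Polr1c and Polr1d stand at 7.19 and 6.55 in vivo, while the NT points of Polr1d lie close to 0.

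The difference between these changes was tested directly as an interaction. The 2-cell to 4-cell change was smaller in NTC than in vivo for 15 of 40 members and larger for 1, where 12.0% of genes had a smaller and 2.38% a larger change. It was smaller in NTM for 6 of 40 and larger for 1, where 8.05% and 1.86% of genes were. Both tests share the in vivo libraries. The most negative values were those of Polr1d (in NTC -6.56 ± 0.68, SE, limma adjusted p = 7.03e-05, and in NTM -6.29 ± 0.86, SE, limma adjusted p = 0.000865), followed by Polr1c, Noc4l and Polr1b in NTC at -4.86 ± 0.69 (SE), -4.58 ± 1.06 (SE) and -4.57 ± 0.65 (SE), and by Noc4l, Polr1c and Nol12 in NTM at -6.24 ± 1.14 (SE), -4.93 ± 1.02 (SE) and -3.63 ± 0.65 (SE). Utp3 rose more in NTC, by 2.21 ± 0.57 (SE, limma adjusted p = 0.0212), a call lost without in vivo 4-cell replicate 1 (adjusted p = 0.0531). Utp20 rose more in NTM, by 3.14 ± 0.76 (SE, limma adjusted p = 0.0214), and it was at 1.67, 0.0165 and 0.155 RPKM in NTM 2-cell embryos and 17.1, 6.65 and 13.8 RPKM in NTM 4-cell embryos. That call was lost without in vivo 4-cell replicate 2 or 3 or NTM 2-cell replicate 2 (adjusted p = 0.0515 to 0.056).

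At the 4-cell stage itself, NT embryos were compared with in vivo embryos to see which members were lower or higher. In NTC embryos 19 of 39 members were lower and 2 higher, where 20.4% of genes were lower and 7.40% higher. The member median was -1.01 and that of all genes -0.39 on the log2 scale. In NTM embryos 14 of 39 were lower and 0 higher, where 17.8% of genes were lower and 3.33% higher, with medians of -1.06 and -0.69. By role, 5 of 6 RNA polymerase I genes, 3 of 5 snoRNP proteins, 5 of 16 small subunit factors, 3 of 8 large subunit factors and both abundant proteins were lower in NTC, and 3 of 6, 3 of 5, 4 of 16, 3 of 8 and 1 of 2 in NTM. The shift depended on scaling. With each library scaled by a median ratio the split was 13 lower and 3 higher in NTC and 8 lower and 2 higher in NTM, and with reads on nuclear genes as the total 13 and 3 in NTC and 9 and 1 in NTM. Median-ratio scaling moved the median of all genes from -0.39 to -0.08 in NTC and from -0.69 to -0.19 in NTM, and the median member lay 0.48 below the median gene in NTC and 0.12 below in NTM. The count in NTM was 7 without in vivo 4-cell replicate 1, 7 without replicate 2 and 8 without replicate 3.

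Polr1d, Polr1c, Noc4l, Nol12, Nop10, Nop16 and Ncl were called lower in both NT types without any 1 library and under all settings tried. For Polr1d the difference was -6.42 ± 0.32 (SE, limma adjusted p = 5.16e-06) in NTC and -5.62 ± 0.39 (SE, limma adjusted p = 0.00019) in NTM. For Polr1c it was -4.72 ± 0.27 (SE, limma adjusted p = 9.72e-06) and -5.11 ± 0.59 (SE, limma adjusted p = 0.00132). No value of either gene in 6 NT embryos came within reach of the 3 in vivo ones, the highest being 17.2 RPKM for Polr1c and 2.93 RPKM for Polr1d. Polr1b differed by -4.02 ± 0.41 (SE, limma adjusted p = 0.000196) in NTC and -3.40 ± 0.75 (SE, limma adjusted p = 0.0172) in NTM, where its call was lost without any 1 in vivo 4-cell library (adjusted p = 0.0701 to 0.0814). Noc4l differed by -4.01 ± 0.47 (SE) and -4.85 ± 0.83 (SE), and Nol12 by -3.66 ± 0.45 (SE) and -3.64 ± 0.48 (SE). Nop10 was at 46.9, 25.7 and 37.6 RPKM in NTC and 38.3, 32.9 and 15.5 RPKM in NTM 4-cell embryos, well under the in vivo embryos in each case, and Ncl at 94.1, 62.1 and 88.8 and 59.1, 53.3 and 83.4 RPKM. Nop56, at 24.3, 15.6 and 31.1 RPKM in NTC and 42.2, 25.9 and 45.7 RPKM in NTM, was also lower in both, though in NTM the call was lost without in vivo 4-cell replicate 1 or 2 (adjusted p = 0.0673 to 0.0828).

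Not all members of these complexes were lower. Dkc1 was higher in NTC 4-cell embryos, at 179.6, 134 and 154 RPKM, than in vivo, a difference of 1.47 ± 0.28 (SE, limma adjusted p = 0.00542). Nol8, a large subunit factor, was also higher, at 143, 94.4 and 182 RPKM against 54.1, 22.5 and 25.5 RPKM (2.06 ± 0.40, SE). Both calls held without any 1 library and were lost in a fit over all groups (adjusted p = 0.12 for Dkc1 and 0.0512 for Nol8). Dkc1 lies on the X chromosome, as does Utp14a. NTC embryos carry nuclei of female donors, while the sex of the in vivo and NTM embryos is not given in the sources used here. The part of sex in the differences of Dkc1 between embryo types was not tested. Ubtf, at 55.2, 29.3 and 24.0 RPKM in NTC, differed from in vivo by 0.02 ± 0.37 (SE, limma adjusted p = 0.972). Fbl, at 73.8, 65.4 and 70.5 RPKM, lay under all in vivo values but its difference of -0.63 ± 0.24 (SE, limma adjusted p = 0.0796) met neither threshold. Noc2l was at 15.6, 16.3 and 12.7 RPKM in NTC, above the in vivo values, with a difference of 1.11 ± 0.37 (SE, limma adjusted p = 0.0527).

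**Figure D5:**
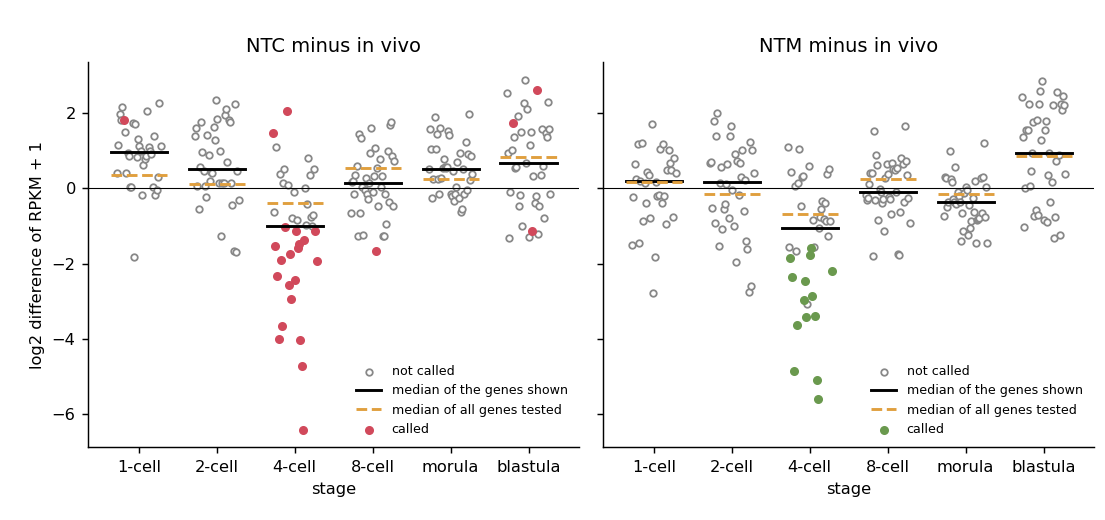
Log2 difference (RPKM + 1) of each member tested between NT and in vivo embryos at each of the 6 stages, NTC in the left panel and NTM in the right, one point per gene, filled where called, with a black bar at the median of the members and a dashed bar at the median of all genes tested. The 4-cell stage holds most of the filled points, and the lowest point in each panel is Polr1d at that stage, at -6.42 in NTC and -5.62 in NTM.

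From the 4-cell to the 8-cell stage more members fell than rose in vivo, while 0 members were called over the same step in NT embryos. In vivo 20 of 39 members fell and 1 rose, where 39.3% of genes fell and 4.40% rose. The medians were -1.77 for members and -1.05 for all genes. The split moved to 17 lower and 4 higher on nuclear reads, with medians of -1.28 and -0.88. With median-ratio scaling it was 11 lower and 8 higher, with medians of -0.45 and -0.33. The distance of the members from the median gene thus depended on scaling, and was small with median ratios. The summed share of the 41 genes was lower in every 8-cell than in every 4-cell embryo on the deposited total, but higher in every 8-cell than in every 4-cell embryo with mitochondrial reads left out (1.86 to 2.45% against 1.72 to 1.77%). Npm1 took a large part of that summed share, as given above, and the share without it was not computed. Polr1d, Polr1c, Noc4l and Polr1b fell most, with changes of -6.46 ± 0.33 (SE, limma adjusted p = 1.73e-05), -5.75 ± 0.39 (SE), -5.69 ± 0.53 (SE) and -3.94 ± 0.46 (SE) on the log2 scale. Polr1c was at 4.51, 5.82 and 1.74 RPKM and Polr1d at 1.58, 0.698 and 0.849 RPKM in the 8-cell embryos. Dkc1 was the 1 member that rose, to 136, 129 and 123 RPKM (1.21 ± 0.28, SE, limma adjusted p = 0.00947). In NTC and NTM embryos, where limma called 0 members, 0.0564% and 0.363% of genes were called, with 5 and 3 members at an unadjusted p under 0.05. The change differed from in vivo for 16 of 39 members in NTC, 14 of them with a less negative or a positive change (17.0% of genes) and 2 with a lower one (2.49%), and for 11 of 39 in NTM, all with a less negative or a positive change (16.5%, with 2.24% of genes lower). With median-ratio scaling those splits became 4 and 6 in NTC and 5 and 2 in NTM. The medians were then 0.61 for members and 0.30 for all genes in NTC, and 0.42 and 0.26 in NTM. Polr1d and Polr1c had the highest values in NTC at 6.47 ± 0.56 (SE) and 5.51 ± 0.60 (SE), and 5.60 ± 0.78 (SE) for Polr1c and 5.53 ± 0.58 (SE) for Polr1d in NTM, while Dkc1 and Nol8 had the 2 lower values in NTC, -2.13 ± 0.55 (SE) and -2.09 ± 0.65 (SE).

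Since the in vivo 4-cell libraries stand apart, the rise was also measured between 2-cell and 8-cell embryos, which leaves them out. This comparison and that with morulae were added after the data were seen. It gave rises of 23 of 38 members in vivo (13.8% of genes), 17 of 39 in NTC (14.1%) and 17 of 39 in NTM (17.9%), with 2, 2 and 3 falls (27.8%, 21.0% and 21.9% of genes). The member medians were 1.99, 1.33 and 2.00 while those of all genes were -0.89, -0.29 and -0.42. In vivo, Ubtf rose most, by 5.59 ± 0.55 (SE, limma adjusted p = 0.00026), followed by Nol7, Utp11 and Fbl at 4.33 ± 0.70 (SE), 4.27 ± 0.59 (SE) and 3.79 ± 0.44 (SE). Nol4l and Utp20 fell, with changes of -2.81 ± 0.48 (SE) and -1.98 ± 0.60 (SE). On the log2 scale Polr1c (1.44 ± 0.66, SE, limma adjusted p = 0.114) and Polr1d (0.09 ± 0.54, SE, limma adjusted p = 0.892), which rose between 2-cell and 4-cell embryos, were not called between 2-cell and 8-cell embryos, and Polr1a and Polr1b were too low there to be tested. Between embryo types this change differed for 0 of the members in NTC by limma (0.219% of genes), with 8 at an unadjusted p under 0.05, and for 1 in NTM (0.450% of genes higher and 0.127% lower), Utp20, by 4.41 ± 0.86 (SE, limma adjusted p = 0.0397). Against morulae, 20 of 39 members were lower and 0 higher than in in vivo 4-cell embryos (34.0% of genes lower and 5.94% higher).

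At the later stages few members were called. Between 8-cell embryo types, Npm1 was lower in NTC, at 1284, 1162 and 913 RPKM, than in vivo, at 3578, 4435 and 2777 RPKM, with a difference of -1.67 ± 0.24 (SE, limma adjusted p = 0.0136), the 1 member called among genes of which 0.578% were lower and 0.882% higher. In NTM 8-cell embryos 0 members were called (2.02% of genes), with 7 at an unadjusted p under 0.05. At the morula stage 0 were called in NTC or NTM against in vivo (0.0321% and 0.168% of genes), with 6 and 2 at an unadjusted p under 0.05. As the share of reads above shows, in vivo morulae differed strongly from each other. The step from 1 to 2 cells was not called as different from in vivo for any member by limma in NTC (0.0256% of genes called) or NTM (0.204%), with 6 members in each at an unadjusted p under 0.05. The same count of 0 was found for the step to the morula (0% and 0.0335% of genes, 2 members at an unadjusted p under 0.05 in each) and for that to the blastula (0.236% and 0.647% of genes, 3 members in NTC and 8 in NTM).

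At the blastula stage NTC embryos had 2 members higher and 1 lower among 37, where 8.81% of genes were higher and 0.657% lower. The in vivo blastulae had 7730 to 7808 genes above 0, against 11771 to 13000 in NTC and 11498 to 13568 in NTM blastulae. Their correlation with each other (r of 0.710 to 0.718) was the lowest of all groups. The median of all genes was 0.85 higher in NTC and 0.86 higher in NTM on the log2 scale. The part of this in the differences and zeros below was not tested. Polr1e was at 8.3, 5.86 and 4.85 RPKM in NTC and 0, 0.42 and 0.134 RPKM in vivo, a difference of 2.62 ± 0.51 (SE, limma adjusted p = 0.032). Noc4l was listed at 0 in all 3 in vivo blastulae and stood at 3.38, 2.59 and 1.4 RPKM in NTC (1.75 ± 0.42, SE, limma adjusted p = 0.044). Npm1 was lower in NTC, with a difference of -1.14 ± 0.17 (SE, limma adjusted p = 0.025). None of the 3 calls held without NTC blastula replicate 2, and with median-ratio scaling 0 were higher and 1 lower, on nuclear reads 3 higher and 0 lower. In NTM blastulae 0 were called (0.746% of genes), with 9 at an unadjusted p under 0.05, and 7 were called without NTM blastula replicate 3. From the morula to the blastula stage 0 members were called in vivo (0.801% of genes, 6 members at an unadjusted p under 0.05) or in NTM (4.22%, 4), where leaving out NTM blastula replicate 3 gave 2. In NTC 4 of 39 fell (where 2.62% of genes fell and 4.54% rose), with changes of -1.49 ± 0.28 (SE, limma adjusted p = 0.017) for Fbl, -1.39 ± 0.36 (SE) for Utp4, -1.38 ± 0.35 (SE) for the polynucleotide kinase Nol9 and -1.36 ± 0.21 (SE) for Npm1. That count was 0 without NTC blastula replicate 1, 1 without NTC blastula replicate 2, 1 without NTC morula replicate 1 or 3 and 2 without NTC morula replicate 2. The change from the 8-cell stage to the morula was called for 0 members in any embryo type, with 0, 2 and 3 at an unadjusted p under 0.05 for in vivo, NTC and NTM embryos (0.0116%, 0% and 0% of genes called).

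The 1-cell stage, right after the transfer, was the only one at which limma called members between the NT types. At the 5 later stages, in their order, 0%, 0%, 0.0507%, 0% and 0% of genes were called and 0 members. In the same order 7, 3, 5, 13 and 0 members were at an unadjusted p under 0.05, in morulae beside 1534 of 9186 genes. In 2-cell embryos 30 of 39 members were lower in NTM and 9 higher (medians of -0.85 for members and -0.25 for all genes). In morulae 37 of 39 were lower and 2 higher (-0.83 and -0.40). With median-ratio scaling the morula medians were -0.31 and -0.01. In blastulae 14 of 40 were lower and 26 higher (0.27 and 0.02). In NTM 1-cell embryos 13 of 35 members were lower than in NTC and 1 was higher, where 14.2% of genes were lower and 5.64% higher. The member median was -1.0 against -0.19 for all genes. The count of 14 fell to 9, 5 and 7 without NTC 1-cell replicates 1, 2 and 3. Nop56 was at 20.5, 33.1 and 35.5 RPKM in NTC, 0.586, 2.67 and 0.355 RPKM in NTM and 7.57, 17.2 and 15.8 RPKM in vivo, and NTM differed from NTC by -3.91 ± 0.43 (SE, limma adjusted p = 0.00073). Its partner Nop58 was at 23.3, 19.2 and 23.1 RPKM in NTC and 1.06, 2.42 and 3.72 RPKM in NTM, a difference of -2.82 ± 0.35 (SE, limma adjusted p = 0.00128). Nol10, a small subunit factor, was at 58.9, 93.2 and 89.3 RPKM in NTC, 6.6, 5.69 and 10.4 RPKM in NTM and 20.3, 25.3 and 20.2 RPKM in vivo. The 3 groups did not overlap, NTM differed from NTC by -3.26 ± 0.29 (SE, limma adjusted p = 0.000265), and NTC from in vivo by 1.81 ± 0.32 (SE, limma adjusted p = 0.048), the 1 member called in that comparison, in which 0.988% of genes were higher and 0.175% lower, and with median-ratio scaling 0 were called. Nop14 differed between the NT types by -2.49 ± 0.74 (SE), a call lost without NTC 1-cell replicate 2 or 3 or NTM 1-cell replicate 1 or 3 (adjusted p = 0.088 to 0.149). The 1 member higher in NTM was Nop10, at 8.02, 9.4 and 14.8 RPKM against 2.14, 1.36 and 1.18 RPKM in NTC (2.17 ± 0.34, SE, limma adjusted p = 0.00332). Between NTM and in vivo 1-cell embryos 0 members were called (1.28% of genes), with 5 at an unadjusted p under 0.05, and with median-ratio scaling 1 was lower.

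Between the 1-cell and 2-cell stages in vivo embryos had 0 members called of 31 (0% of genes), with 1 at an unadjusted p under 0.05. These libraries were uneven. In vivo 1-cell replicate 1 had 9491 genes and 26 members above 0, where replicates 2 and 3 had 37 and 36 members. In vivo 2-cell replicate 2 had 30 members above 0, and replicates 1 and 3 had 37 each. The part of this in the count of 0 was not tested. In NTC 10 of 39 fell and 3 rose (8.95% and 4.53% of genes). With median-ratio scaling 6 fell and 4 rose, with medians of -0.15 for members and 0.03 for all genes. Utp3, Nop56, Utp4 and Utp6 fell most, with changes of -2.87 ± 0.37 (SE), -2.64 ± 0.38 (SE), -2.57 ± 0.35 (SE) and -2.37 ± 0.47 (SE) on the log2 scale, and Utp14b, Nop16 and Utp23 rose, by 2.77 ± 0.38 (SE), 2.20 ± 0.46 (SE) and 2.16 ± 0.48 (SE). In NTM 2 of 36 fell, Utp18 (log2 change -3.39 ± 0.90, SE) and Npm1 (-2.08 ± 0.28, SE), and Nol10 rose (2.29 ± 0.49, SE), where 6.68% and 2.72% of genes fell and rose. At the 2-cell stage 0 members were called against in vivo in NTC or NTM (0.152% and 0.141% of genes). In NTC 12 of 36 members were at an unadjusted p under 0.05, as were 1097 of 11822 genes. There 29 members were above in vivo and 7 below, with medians of 0.52 for members and 0.11 for all genes. In NTM 5 of 36 members were at an unadjusted p under 0.05, as were 1067 of 11345 genes, with 20 members above in vivo and 16 below.

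Donor cells were compared with each other and with the embryos made from them. MEF used for transfer had been kept in low serum to synchronize their cell cycle, and CC had been stored cold until use. Whether the sequenced donor cells were treated in the same way is not given in the sources used here. Between MEF and CC 0 of 40 members were called (6.29% of genes), with 2 at an unadjusted p under 0.05. The CC libraries varied widely, with Nop16 at 19.5, 36.5 and 5.81 RPKM. Against its donor, the NTC 1-cell embryo had 11 of 40 members higher and 8 lower (29.3% and 20.8% of genes). Nop53, Nop16, Nol11 and Nop10 were lower, with differences of -4.65 ± 0.48 (SE), -4.12 ± 0.64 (SE), -3.50 ± 0.32 (SE) and -2.44 ± 0.34 (SE), and Nol10, Nol4l, Nol9 and Dkc1 higher, by 5.57 ± 0.42 (SE), 3.96 ± 0.26 (SE), 3.77 ± 0.56 (SE) and 3.76 ± 0.86 (SE). The call of Dkc1 was lost without any 1 NTC 1-cell library (adjusted p = 0.0538 to 0.0587). The NTM 1-cell embryo had 16 of 41 lower and 5 higher than MEF (29.9% and 25.2% of genes). Nop2, Nop16, Nop53 and Fbl were lower, with differences of -5.05 ± 0.40 (SE), -4.61 ± 0.27 (SE), -4.53 ± 0.47 (SE) and -3.87 ± 0.54 (SE), and Nol8, Nol4l, Utp18 and Npm1 higher, by 3.44 ± 0.66 (SE), 3.29 ± 0.77 (SE), 2.68 ± 0.48 (SE) and 1.39 ± 0.17 (SE). Nop16, which all CC libraries hold, was the 1 member listed at 0 in every 1-cell embryo.

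A wider list of 111 other ribosome biogenesis factors, such as helicases and assembly GTPases, can be read against the shares of all genes given above. Between 2-cell and 4-cell embryos 91 of 111 rose and 2 fell in vivo, 67 of 110 rose and 1 fell in NTC and 39 of 108 rose and 0 fell in NTM. Between 4-cell and 8-cell in vivo embryos 67 of 111 fell and 4 rose. At the 4-cell stage 43 were lower and 5 higher in NTC than in vivo, and 30 lower and 2 higher in NTM. At the 1-cell stage 20 of 99 were lower and 6 higher in NTM than in NTC, and from the morula to the blastula stage of NTC embryos 11 fell and 0 rose.

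Some members could not be followed throughout. Nol3, better known as an apoptosis repressor than as a nucleolar factor, and Nol4 were listed at 0 in all libraries of many embryo groups, Utp23 in the in vivo and NTM 1-cell embryos, and Noc4l and Nol4l in the in vivo blastulae. The in vivo blastulae had the fewest genes above 0 of all groups. Npm1 has processed pseudogene copies that can share its reads, and Utp14b lies on the same strand as part of Acsl3. The spans of 12 members overlap genes on the other strand: Dkc1, Noc2l, Nol3, Nol4l, Nol7, Nol11, Nop9, Nop14, Nop56, Polr1a, Polr1e and Utp14a. The strand setting of the counting is not given in the sources used here, so reads of such partners may be mixed.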

How the data were processed

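RNA of single embryos and of donor cells had been reverse transcribed by the authors. The cDNA was then poly(A)-tailed, amplified by PCR and sequenced as paired ends. There were no molecular identifiers, so a value covers counting and amplification error together. The authors deposited 1 table of RPKM for 27238 genes and 60 libraries. The submitters' processing notes name Bowtie 0.12.2 and mm8, whereas the study's methods describe TopHat, Bowtie2 and HTSeq with a UCSC reference. Which of them made the table is not given in the sources used here. Spike-in RNA was not used here.

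Genes were matched to GENCODE vM21 by Ensembl identifier (27056 of 27238). Reads per library were recovered from the RPKM values, which at the vM21 exon length came out whole (within 0.01) for 20661 of 26669 genes. This gave depth but no count test, and the length in the table was recovered for 41 of 41 members. Groups came from the labels. Comparisons were fitted with limma 3.58.1 in R 4.3.3 (empirical Bayes with a mean trend) on log2(RPKM + 1), within the groups compared, for genes with a mean of at least 0.5 RPKM, and p-values were Benjamini-Hochberg adjusted over all genes tested, with calls at an adjusted p under 0.05 and a log2 difference of at least 1. Differences on this scale understate the change of low genes. The scripts were tested on simulated data. Summaries used Python 3.11.15, pandas 2.3.3 and NumPy 2.4.6.

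The members, the list of other factors and the tests were chosen with earlier results of these data known. Genes given with full values were fixed members of each role, the 4 largest rises and falls among the calls of each comparison, and members called against the direction of most. Alternatives were leaving out each library, a smaller pseudocount (0.1), all genes kept whatever their level, and scaling by median ratios or to nuclear reads. The others were a fit over all groups, the replicate number as a block and no threshold on the fold change. The comparisons of 8-cell with 2-cell embryos and of in vivo 4-cell embryos with morulae were added after seeing the data.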

Additional observations from a re-analysis of the deposited data

Results flagged for a closer look

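4 results were set aside because an effect differed between embryo types by a test of the difference itself. The change from the 2-cell to the 4-cell stage differed from in vivo for 16 of 40 members in NTC embryos (12.0% of genes lower and 2.38% higher). In NTM embryos it differed for 7 of 40 (8.05% and 1.86% of genes). The change from the 4-cell to the 8-cell stage differed for 16 of 39 members in NTC (17.0% of genes higher and 2.49% lower). In NTM it differed for 11 of 39 (16.5% and 2.24% of genes). All 4 use the in vivo 4-cell libraries, whose mitochondrial share of 5.68 to 8.87% stood apart from that of the other embryos from the 4-cell stage on (20.4 to 64.2%), and the part of these libraries in the results was not tested beyond the steps that leave them out. From the 2-cell to the 8-cell stage the difference was called by limma for 0 of 39 members in NTC (0.219% of genes). In NTM it was called for 1 of 40 (0.450% of genes higher and 0.127% lower). In NTC 8 members and in NTM 6 were at an unadjusted p under 0.05. No group had enough libraries for a check of single outlying values.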

How the results depend on the processing

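Over 126 pairs of a comparison and an alternative setting, 103 counts of called members stayed within 1.5 times the count reported, 10 were lower and 13 higher. Over 211 calls of single members, 2880 values under alternatives kept the call in 2426 cases and lost it in 454, and 0 changed sign. The setting without a fold change threshold uses the same fit. Its counts could only stay or rise, and its part of the 2426 kept cases was fixed in advance. From the morula to the blastula stage in vivo the count of 0 became 1 on nuclear reads and 7 in a fit over all groups. In NTC the 4 calls of that step became 2 with a pseudocount of 0.1, 1 without a filter, 8 with median-ratio scaling and 1 over all groups, and in NTM the 0 became 1 with median-ratio scaling and 1 on nuclear reads. The 15 rises from the 2-cell to the 4-cell stage in NTM became 26 over all groups. At the 4-cell stage the 21 differences between NTC and in vivo became 13 over all groups. At the blastula stage the 3 for NTC became 5 with the smaller pseudocount, 0 without a filter, 1 with median-ratio scaling and 8 over all groups, and the 0 for NTM became 2 with the smaller pseudocount, 3 on nuclear reads and 11 over all groups. The 14 differences between NTM and NTC 1-cell embryos became 8 without a filter and 6 over all groups, the 0 between MEF and CC 1 over all groups, and the 7 members whose 2-cell to 4-cell change differed in NTM 13 over all groups. The cause was not tested. Shares of all genes called are not given here for these settings or for the left-out libraries below. These counts therefore do not show whether members moved more than other genes.

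With the replicate number as a block the NTC morula to blastula count became 2 and the NTC blastula count 0. Replicate numbers did not pair the samples (r of -0.159 to 0.067 between same-numbered libraries), and the block moved no other of these counts by over 1.5 times.

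Leaving out 1 library at a time gave 28 to 34 and 16 to 21 members from 2 to 4 cells in vivo and in NTC, 7 to 15 in NTM, 18 to 22 from 4 to 8 cells in vivo, and 0, 0 to 3 and 0 to 2 from morula to blastula in vivo, in NTC and in NTM. Against in vivo it gave 15 to 19 (NTC) and 7 to 18 (NTM) with 4 cells, and 0 to 4 (NTC) and 0 to 7 (NTM) in blastulae. It gave 5 to 17 between the NT types with 1 cell, 0 to 1 between the donors (1 without CC replicate 3), 13 to 22 for NTC against CC, 16 to 23 for NTM against MEF, and 12 to 17 (NTC) and 5 to 9 (NTM) for the difference in the 2-cell to 4-cell change. Over the other comparisons together the 45 calls became 21, 13 and 19 without replicate 1, 2 and 3 of every group, which leaves 2 embryos per group.

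At 3 reads per gene the depth sets a limit of 0.0314 to 0.283 RPKM at 2000 nucleotides, which bounds the genes listed at 0.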
